A study of Mus musculus with 6 samples.

Results

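Histone acetylation is written, read and erased by a small set of enzymes and bromodomain proteins, and 9 of their genes are described here by the H3K27ac that their own loci carried in the mouse retina. The genes were listed by name. They are the 4 writers Ep300, Crebbp, Kat2a and Kat2b, the 2 readers Brd2 and Brd3, and the 3 erasers Hdac1, Hdac2 and Hdac3, out of 21938 protein-coding genes of the annotation (GENCODE vM21, GRCm38). A peak was taken as belonging to a gene if it overlapped the gene body or lay within 2.5 kb of one of its transcription start sites (TSS). This gave 130 peaks over 6 peak lists, which merged into 31 regions out of 39942 regions of the whole series. All 9 genes held at least 1 peak in at least 5 of the 6 lists.

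The acetylation of histone H3 at lysine 27 (H3K27ac) marks active promoters and enhancers. It is placed mainly by p300 and CBP, the products of Ep300 and Crebbp. Kat2a (GCN5) and Kat2b (PCAF) are related acetyltransferases that favour lysine 9 of the same histone. The bromodomain proteins BRD2 and BRD3 bind acetylated histone tails and bring the transcription machinery to them, and the class I deacetylases HDAC1, HDAC2 and HDAC3 remove the acetyl groups again. HDAC1 and HDAC2 work in the SIN3, NuRD and CoREST complexes, and HDAC3 in the NCoR complex.

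H3K27ac ChIP-seq had been done on single bulk retinas of WT mice that were 3 months old at the first pressure elevation. In the 4xIOP group (n = 3) the intraocular pressure had been raised to 30 mmHg for 1 h, 4 times, and in the control group (n = 3) the retina came from the untreated contralateral eye. Collection was on day 2 from the fourth elevation in both groups, and 10 mM sodium butyrate, which inhibits deacetylases, was present at lysis throughout. The protocol text also describes dasatinib or vehicle injection, but no label gives it to a sample. The labels do not say which eyes came from one animal.

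Each sample was 1 peak list, called by the authors for that sample alone. In 4 of the 6 lists (control replicates 1 and 2, 4xIOP replicates 1 and 2) the name carried by the list is that of the other group, and in 2 (replicate 3 of each group) it is that of the label. The groups were kept as labelled, every direction below holds for the labelled groups, and the 2 lists with matching names are given on their own for the promoter scores and the lengths under peaks. The lists held 16195 to 36509 peaks, with the most in control replicate 3 and the fewest in 4xIOP replicate 3. The mean background recovered from them was 87.4 to 173 fragments per 10 kb. Of 10 retinal markers, 6 had a promoter peak in all 6 lists, among them Gnat1, Pde6b, Nrl, Rcvrn and Otx2. Crx had one in 5 lists, and Pax6 and Rlbp1 had none. None of 10 markers of pigment epithelium, microglia, endothelium and red cells had a promoter peak in any list, and of 7 markers of absent tissues Ckm had one in 4 lists and Apoa1 in 1. In bulk tissue a cell type that is more abundant and a cell type with more signal per cell cannot be told apart.

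The DNA under the mark is shown first for the places to which the values below refer. Promoter sequences were taken from RefSeq (GRCm38.p6), 250 bases before the start of each transcript, where no base lay in an annotated exon. Entries were matched for 7 of the 9 genes (not for Hdac1 and Hdac3). Motifs were searched on both strands: GGGCGG (GC box), CCAAT, GCGCATGC (NRF1), CCGGAAG (ETS), TGACGTCA (CRE), CACGTG (E-box), TATAAA and AAGATGGCG (YY1). Capitals mark a match, and no match overlapped another. Hdac2 is shown because all 250 bases lay under a peak in all 6 lists, the internal Brd2 start because the strongest Brd2 region covered it, Kat2b because its peak began there, and Kat2a because no base lay under a peak in any list.
Hdac2, chr10:36974294-36974543, + strand: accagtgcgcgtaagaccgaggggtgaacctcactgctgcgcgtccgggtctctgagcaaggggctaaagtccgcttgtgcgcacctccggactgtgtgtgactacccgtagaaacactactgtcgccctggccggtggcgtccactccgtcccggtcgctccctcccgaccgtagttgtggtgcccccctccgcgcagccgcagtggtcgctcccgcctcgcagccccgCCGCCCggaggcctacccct
Brd2 internal start, chr17:34119901-34120150, - strand: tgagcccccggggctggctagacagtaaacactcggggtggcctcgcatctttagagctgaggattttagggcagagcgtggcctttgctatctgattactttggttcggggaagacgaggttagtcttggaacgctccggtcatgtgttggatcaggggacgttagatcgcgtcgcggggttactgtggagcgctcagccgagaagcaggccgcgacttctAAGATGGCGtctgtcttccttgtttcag
Kat2b, chr17:53566721-53566970, + strand: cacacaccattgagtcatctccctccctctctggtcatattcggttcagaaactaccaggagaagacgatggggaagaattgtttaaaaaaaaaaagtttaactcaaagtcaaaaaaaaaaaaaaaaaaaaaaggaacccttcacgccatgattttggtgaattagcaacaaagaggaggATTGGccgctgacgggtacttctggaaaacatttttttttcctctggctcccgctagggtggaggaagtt
Kat2a, chr11:100712468-100712717, - strand: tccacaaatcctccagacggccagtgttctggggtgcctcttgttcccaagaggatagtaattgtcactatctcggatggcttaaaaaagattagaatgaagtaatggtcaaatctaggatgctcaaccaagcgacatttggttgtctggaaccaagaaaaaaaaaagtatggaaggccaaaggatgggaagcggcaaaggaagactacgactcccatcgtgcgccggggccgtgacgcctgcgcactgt

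The 4 promoters differed in base composition. Hdac2 had 68.8% G and C and an observed over expected CpG ratio of 0.931, and the internal Brd2 start had 56.4% and 0.945. Kat2a had 48.8% and 0.746, and Kat2b 40.8% and 0.578, against medians of 52.4% and 0.373 over 32851 RefSeq promoters of the same length. Hdac2 held 1 GC box, a motif found in 32.7% of all these promoters. Kat2b held 1 CCAAT box (33.9% of all), and the internal Brd2 start held 1 YY1 motif (0.606% of all) close to its end. The Kat2a window held none of the 8 motifs. The 250 bases before the RefSeq starts of Ep300 and Crebbp lay wholly in an exon of the GENCODE annotation and those of Brd3 in part, and are not shown. Nor is the Brd2 window at chr17:34122608-34122857, with 26 exon bases, 2 NRF1 motifs and 1 ETS motif, under a peak in 1 list. Without exon bases but also not shown are Brd2 chr17:34121748-34121997 (65.2% G and C, 1 GC box, under a peak in 2 lists) and Kat2b chr17:53583876-53584125. The latter held none of the 8 motifs and lay under a peak in no list.

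Away from promoters, 2 regions of these genes were called in all 6 lists, one in an intron of Kat2b and one upstream of the main Brd3 starts. For each, 250 bases around the middle of the part shared by all lists are given from the genome (GRCm38.p6). Capitals mark TAATCC, the core bound by the photoreceptor factors CRX and OTX2. The letters CAGCTG (a bHLH E-box) and TGACTCA (AP-1) were searched too, all on both strands.
Kat2b intron, chr17:53636206-53636455, + strand: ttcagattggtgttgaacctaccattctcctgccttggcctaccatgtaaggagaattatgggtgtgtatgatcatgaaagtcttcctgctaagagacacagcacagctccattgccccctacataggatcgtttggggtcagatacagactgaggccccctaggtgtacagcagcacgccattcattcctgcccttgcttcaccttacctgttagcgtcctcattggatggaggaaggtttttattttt
Brd3 upstream, chr2:27496771-27497020, - strand: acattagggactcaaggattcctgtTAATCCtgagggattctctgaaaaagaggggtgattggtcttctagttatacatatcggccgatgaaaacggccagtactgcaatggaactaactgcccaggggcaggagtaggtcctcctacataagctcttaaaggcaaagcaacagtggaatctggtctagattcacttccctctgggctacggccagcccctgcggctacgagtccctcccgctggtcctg

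The Brd3 sequence held 1 TAATCC, outside the 46 bases shared by all lists and under a peak in 5 lists (not in 4xIOP replicate 1), and neither of the other motifs, and the Kat2b sequence held none of the 3. Over the 1805 regions called in all 6 lists that lay more than 2.5 kb from any TSS, 6.48% held TAATCC, 18.8% held CAGCTG and 3.99% held TGACTCA in the same window. A match here is a string of letters and not a bound site.

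Promoter peaks were compared between the genes first. A promoter peak was present in all 6 lists at 8 of the 9 genes, the exception being Kat2a, which lacked one in control replicate 2. Among all protein-coding genes 39.5% had one in all 6 lists. By the fold over the local background, the highest in rank were Ep300 and Hdac2 and the lowest Brd3 and Brd2. By the number of fragments at the summit, Brd2 and Kat2b ranked next to Ep300. Folds of different lists are not on one scale (8 of the 9 genes had their highest fold in control replicate 3, the longest list), so each fold was also expressed as a percentile among the marked promoters of its own list.

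The order by fold percentile, as mean ± SD over the lists, was Ep300 (86.8 ± 8.16), Hdac2 (84.9 ± 7.98), Crebbp (69.6 ± 19.9), Hdac1 (62.7 ± 16.7), Kat2a (56.6 ± 28.4, 5 lists), Kat2b (39.7 ± 9.77), Hdac3 (28.7 ± 6.29), Brd3 (20.5 ± 10.1) and Brd2 (10.9 ± 4.36). Of the neighbours in this order, only Hdac2 and Crebbp differed by more than the SD of their difference over the lists (15.3 ± 13.7, Hdac2 higher in 5 of 6 lists). Ep300 and Hdac2 differed by 1.89 ± 7.02, and Brd3 and Brd2 by 9.60 ± 10.4.

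The order by fragments was another one. Ep300 was first with a percentile of 99.1 ± 1.12, followed by Kat2b (96.2 ± 2.06), Brd2 (93.8 ± 4.08), Hdac2 (87.3 ± 2.76) and Crebbp (80.5 ± 15.4). Hdac1 (55.4 ± 15.1), Brd3 (47.2 ± 11.1), Hdac3 (34.5 ± 9.07) and Kat2a (22.1 ± 14.6, 5 lists) came after them. Ep300 was above Kat2b, Kat2b above Brd2 and Brd2 above Hdac2 in 6 of 6 lists each. The local background set beside the peak was highest at Brd2 (7.76 ± 2.87 times the genome mean of the list), Kat2b (6.22 ± 2.14) and Ep300 (5.19 ± 1.63). It was 3.26 ± 1.12 times at Brd3, 3.16 ± 0.974 at Crebbp, 2.95 ± 0.811 at Hdac2, 2.48 ± 0.794 at Hdac3, 2.33 ± 0.616 at Hdac1 and 1.50 ± 0.314 at Kat2a. Ep300 thus came first by fold on one of the 3 highest backgrounds, and Brd2 came last by fold on the highest. The fold divides by this background and the fragment count does not, so both are given below.

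**Figure D1:**
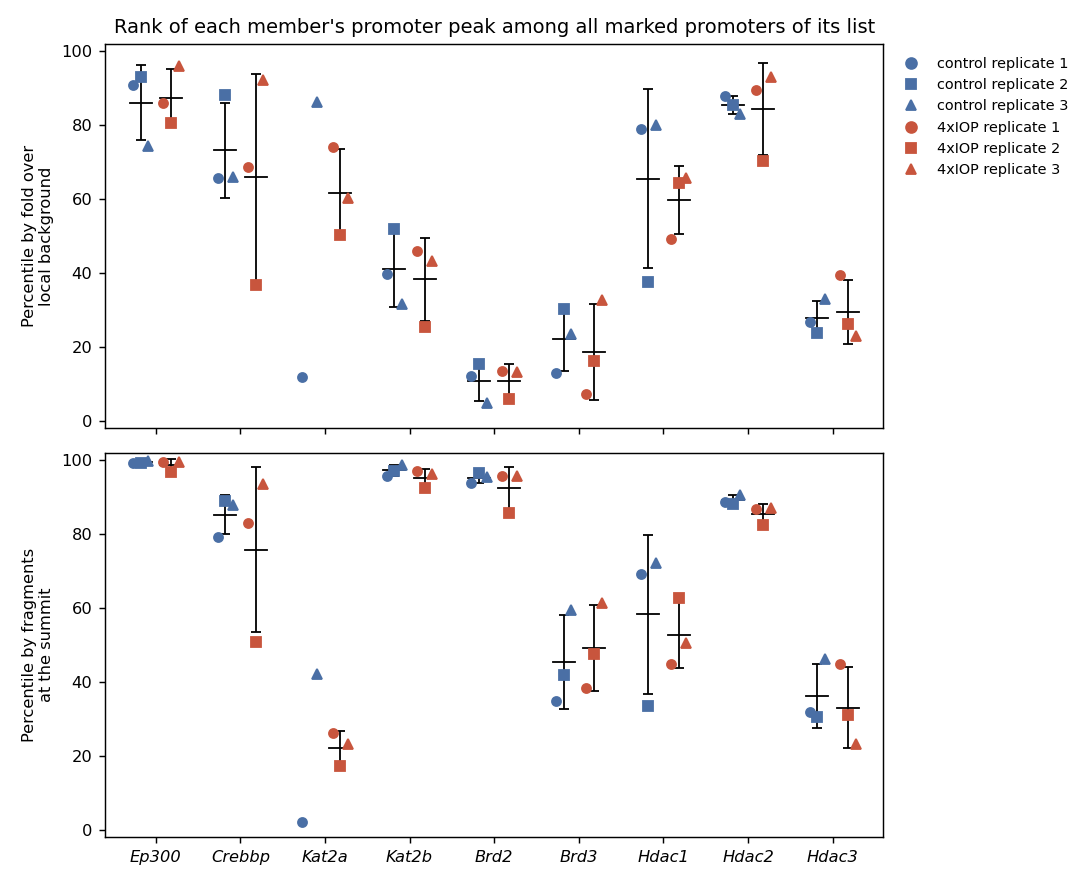
Percentile of each gene's strongest promoter peak among all marked promoters of the same list, by fold over the local background (top) and by fragments at the summit (bottom), with 1 point per list, and the mean ± SD (bars) where a group had 3 values. Brd2 and Kat2b lie low in the top panel and above 85 in the bottom panel, and Kat2a has no point for control replicate 2.

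Ep300, which encodes the acetyltransferase p300, lies on the + strand at chr15:81585351-81652077. Its promoter peak had a fold of 7.76, 7.50 and 8.17 in control replicates 1 to 3 and of 6.87, 6.36 and 8.03 in 4xIOP replicates 1 to 3. The folds of the groups overlapped (7.81 ± 0.338 and 7.09 ± 0.852, SD, n = 3, exact permutation p = 0.3). The summit held 95, 104 and 168 fragments in the control lists and 88, 69 and 79 in the 4xIOP lists, which was 30.8 to 68.0 times the genome mean of the list. It was the only region of the gene, 1117 to 1340 bp long, and began beside the TSS. The promoter windows of 1110025M09Rik and Gm23880 reach it too.

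Crebbp encodes CBP, the paralogue of p300, and lies on the - strand at chr16:4081328-4213997. Its strongest promoter peak had a fold of 5.88, 6.87 and 7.54 in the controls and of 5.90, 4.54 and 7.34 in 4xIOP. The groups overlapped, with the lowest value in 4xIOP replicate 2, where the downstream peak was split in 2 and the upstream peak was the stronger. The summit held 46, 60 and 98 fragments in the control lists and 46, 30 and 50 in the 4xIOP lists. In all 6 lists a peak upstream of the outer TSS was separated by a gap from a second peak, with the upstream summit 283 to 320 bp before that TSS. The second peak covered the outer TSS in 2 lists (control replicates 1 and 3) and began downstream of it in the other 4.

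Kat2a encodes GCN5, the acetyltransferase of the SAGA and ATAC complexes, and lies on the - strand at chr11:100704746-100712465. It had the fewest fragments of the writers. Its single peak had a fold of 3.69 in control replicate 1 and 9.29 in control replicate 3, and control replicate 2 had none. In 4xIOP the folds were 6.12, 5.00 and 5.45. The controls thus lay on both sides of 4xIOP. The summit held 13 and 54 fragments in these 2 lists and 24, 20 and 21 in the 4xIOP lists. A missing peak says that the locus was below the threshold of that list, and not that the mark was absent. The TSS window of Hspb9 also overlaps the peak.

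Kat2b encodes PCAF, the paralogue of GCN5, and lies on the + strand at chr17:53566861-53672720. Its promoter peak had a fold of 4.83, 4.92 and 5.38 in the controls and of 5.00, 4.16 and 4.86 in 4xIOP. The groups overlapped, and 4xIOP replicate 2 was lowest. The summits held 55 to 140 fragments. The peak covered the TSS in all 6 lists, with 5 to 120 bases of the promoter sequence shown above.

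The readers had the lowest mean fold percentiles of the 9 genes. Brd2, a bromodomain protein of the BET family, lies on the - strand at chr17:34112023-34122634. Its strongest peak had a fold of 3.69, 3.67 and 3.46 in the controls and of 3.77, 3.23 and 3.82 in 4xIOP, and the means did not separate (3.61 ± 0.130 against 3.61 ± 0.325, SD, n = 3, exact permutation p = 1.0). The summit held 63, 80 and 116 fragments in the control lists and 62, 47 and 54 in the 4xIOP lists. It lay 1046 to 1500 bp downstream of the nearest GENCODE TSS, in the region that covers the internal RefSeq start shown above. The region also overlaps H2-DMa, a class II histocompatibility gene, and the antisense transcript CR974462.3, and cannot be assigned to Brd2 alone.

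Brd3, also of the BET family, lies on the - strand at chr2:27445579-27507662. Its promoter peak had a fold of 3.73, 4.19 and 4.86 in the controls and of 3.38, 3.80 and 4.51 in 4xIOP. The groups overlapped, with the lowest value in 4xIOP replicate 1 and the highest in control replicate 3. The promoter region downstream of the outer starts was called in 5 lists and the region upstream of them in 4. Neither was called in all 6, although every list had at least 1 of them. The summits held 27 to 66 fragments.

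Among the erasers, Hdac2 had the strongest and Hdac3 the weakest promoter peak. Hdac2 lies on the + strand at chr10:36974544-37001889. Its fold was 7.34, 6.63 and 8.96 in the controls and 7.23, 5.77 and 7.48 in 4xIOP, with overlapping groups (7.64 ± 1.20 and 6.83 ± 0.924, SD, n = 3, exact permutation p = 0.5). The summit held 54, 59 and 103 fragments in the control lists and 49, 44 and 43 in the 4xIOP lists. A single peak of 904 to 1351 bp spanned both annotated starts in every list and was the only region of the gene.

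Hdac1 lies on the - strand at chr4:129516104-129542713. Its strongest peak had a fold of 6.62, 4.43 and 8.67 in the controls and of 5.12, 5.52 and 5.66 in 4xIOP. The 4xIOP values lay between the control values. The summit held 40, 29 and 78 fragments in the control lists and 30, 34 and 28 in the 4xIOP lists. The TSS itself was under a peak in no list. It lay in a gap between a downstream region called in all 6 lists and an upstream region called in all 3 controls and in 4xIOP replicate 2.

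Hdac3 lies on the - strand at chromosome 18, 37935844 to 37955016. Its strongest promoter peak had a fold of 4.35, 3.96 and 5.47 in the controls and of 4.77, 4.18 and 4.20 in 4xIOP, and the groups overlapped. The summits held 21 to 57 fragments. The gene starts back to back with Rell2, and the peaks on both sides of the TSS lie within 2.5 kb of both starts, so that the promoter values of the 2 genes were the same and cannot be separated.

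The position of the peaks around the start was described next. The 9 genes have 16 annotated TSS positions. A peak covered 3 of them (18.8%) in all 6 lists, those of Kat2b and Hdac2, and 6 of them (37.5%) in no list, which were those of Kat2a, Hdac1 and Hdac3 and 3 of the 4 of Brd3. Over all genes marked in all 6 lists, 14.8% of the TSS positions were under a peak in all 6 lists and 40.8% in none, and over the 8 genes here that belong to that set (without Kat2a) it was 20.0% and 33.3% of 15. The highest summit lay downstream of the TSS in 46 of 53 promoter peaks (86.8%), and in 41 of 48 (85.4%) without Kat2a. Over the 8669 genes marked in all 6 lists it did so in 67.1% to 72.7% of the peaks of a list, with a median of 154 to 174 bp downstream. The 53 peaks come from 9 genes and are not independent.

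**Figure D2:**
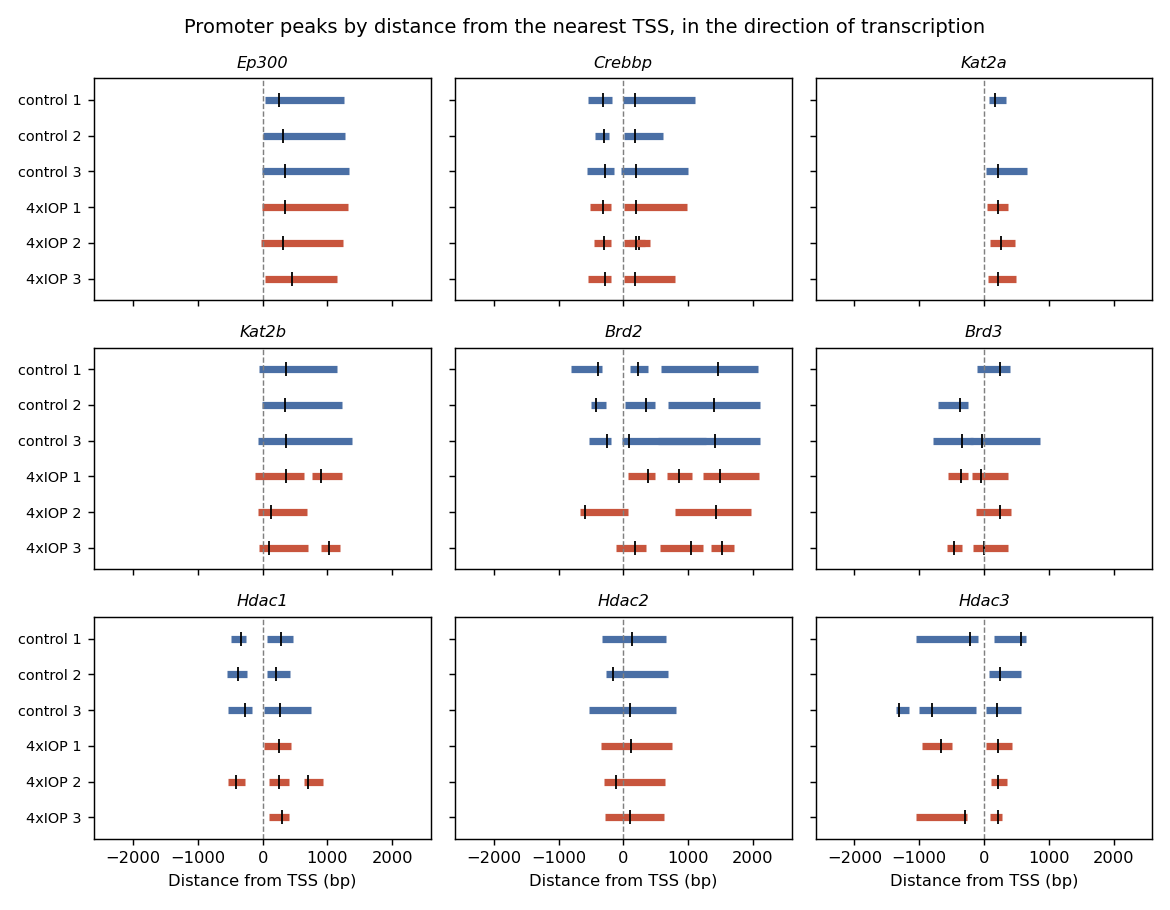
Promoter peaks of the 9 genes in each list (control in blue, 4xIOP in red), by distance in bp from the TSS nearest to each summit, with black ticks at the summits and transcription to the right. For genes with several starts, peaks near different starts share the axis. The TSS falls between peaks or beside them at Kat2a, Hdac1 and Hdac3 and under the peak at Kat2b and Hdac2.

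Of the 31 regions, 16 overlapped a promoter window and 15 lay only in the gene body. 8 of the 16 and 2 of the 15 were called in all 6 lists. That is 32.3% of the 31, and 26.4% of all regions were called in all 6 lists, with no test of the difference. The long genes Kat2b and Crebbp held 13 of the 15 gene body regions, Kat2b with 8 and Crebbp with 5, and Brd3 and Hdac1 held 1 each. Of the 31 regions 7 were called in 1 list, 3 of them in control replicate 3.

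The Kat2b region in all 6 lists lay 68.9 kb downstream of the TSS, in an intron. Its fold was 4.46, 4.26 and 4.90 in the controls and 3.43, 4.34 and 4.49 in 4xIOP, against 4.16 to 5.38 at its promoter. The 643 bases common to all lists hold the sequence given above. The other Kat2b regions, 11.6 to 94.2 kb from the TSS, were called in 1 to 4 lists with folds of 2.52 to 3.84.

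The Brd3 region in all 6 lists lay 20.9 kb upstream of the nearest basic TSS and inside the annotated gene. Its fold was 3.73, 3.68 and 6.45 in the controls and 4.57, 4.29 and 4.01 in 4xIOP. It was higher than the Brd3 promoter peak in control replicate 3 and 4xIOP replicates 1 and 2, and lower in control replicate 2 and 4xIOP replicate 3. The parts called in the lists differed, and 46 bases were common to all 6.

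In Crebbp the intronic regions 90.3 and 109 kb from the nearest TSS were each called in 3 lists (control replicate 3, 4xIOP replicates 1 and 2) with folds of 3.35 to 4.73. The Hdac1 region 16.8 kb into the gene was called in 4 lists (control replicates 2 and 3, 4xIOP replicates 1 and 2) with folds of 3.35 to 4.70. Each of these regions was called in lists of both groups.

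The comparison of 4xIOP with control asks whether repeated pressure elevation changed the mark at these genes. No difference passed the test. For each list, the highest promoter fold of each gene was ranked and turned into a normal score, and the scores of the 8669 genes marked in all 6 lists were compared with limma. 0 genes (0.0%) passed an adjusted p of 0.05 in either direction, and 270 had an unadjusted p under 0.05, none of them among the 8 genes tested here. Kat2a was not tested since it lacked a peak in 1 list.

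The differences in score (4xIOP minus control, ± SE) were 0.14 ± 0.40 for Ep300, -0.06 ± 0.45 for Crebbp, 0.06 ± 0.37 for Kat2b, 0.14 ± 0.37 for Brd2, -0.02 ± 0.38 for Brd3, -0.13 ± 0.40 for Hdac1, 0.09 ± 0.38 for Hdac2 and 0.19 ± 0.36 for Hdac3. The adjusted p of limma was 0.9996 for each. 5 genes had a higher and 3 a lower mean score in 4xIOP, with a median difference of 0.08, against 0.00 over all genes, of which 50.6% were higher. Every SE was larger than its difference. A missed threshold does not show that the groups were alike.

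The lists also fall into 2 classes by their shortest peak (above 200 bp in control replicate 1 and 4xIOP replicates 1 and 2, below it in the others), which was noticed in the data. Each class holds lists of both groups, 2 of one and 1 of the other. Within the longer class the score difference ran from -0.62 for Hdac1 to 0.24 for Hdac3. Within the shorter class it ran from 0.02 for Hdac3 to 0.79 for Ep300. The differences of all genes within each class were not computed, so neither range is read as particular to the 8 genes. In the 2 lists whose own name is that of their label, replicate 3 of each group, the score difference ranged from -0.31 for Hdac1 to 1.29 for Ep300, with no test. The part of the class in the result was not tested beyond the fit with the class as a term, which called 0 genes.

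**Figure D3:**
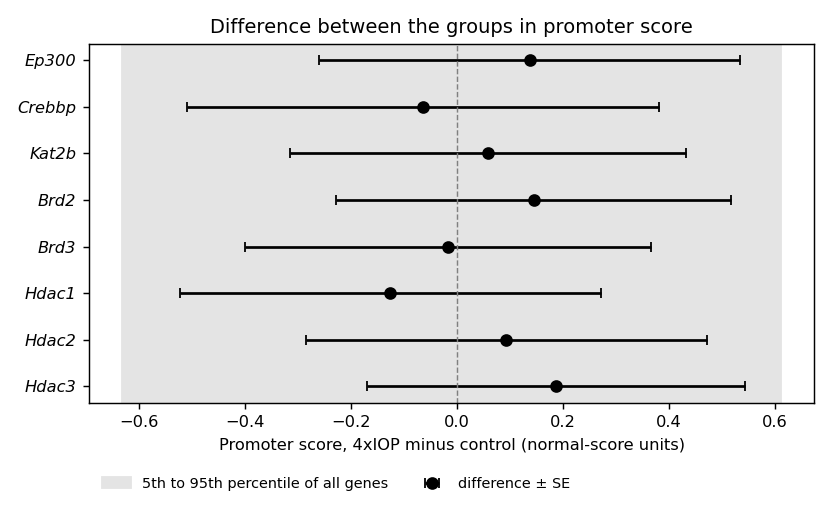
Difference in promoter score between the groups (4xIOP minus control, in normal-score units) for the 8 genes marked in all 6 lists, with the SE of the limma fit, over the range from the 5th to the 95th percentile of all 8669 genes (grey, -0.63 to 0.61). Every point lies inside this range and every bar crosses 0.

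The same test on single regions gave the same count. Of 10529 regions called in all 6 lists, 0 (0.0%) passed an adjusted p of 0.05 and 334 had an unadjusted p under 0.05. None of the 10 such regions of these genes was among the latter. Of the 10, 7 had a higher and 3 a lower mean score in 4xIOP, and the share over all regions was not computed. Crebbp and Kat2b gave 2 of the 10 each, so the regions are not independent. No region of these genes was called in all control lists and no 4xIOP list, nor the reverse, against 1.05% and 0.015% of all regions. The upstream Hdac1 region came closest to the former, with 3 controls and 1 4xIOP list.

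The length under peaks was compared next. It was lower in 4xIOP at 8 of the 9 genes and higher at Kat2a, and it was largest in control replicate 3 at all 9. Over all genes with a peak, 91.7% had a lower mean in 4xIOP. The median ratio of 4xIOP to control was 0.776 over the genes marked in all 6 lists, and the ratios here ran from 0.587 at Hdac3 to 1.25 at Kat2a. The lists of the groups overlapped in total length, with 9.06 ± 2.08 Mb under peaks in 4xIOP and 13.3 ± 5.99 Mb in control (SD, n = 3). Control replicate 3 alone had 20.1 Mb, and control replicate 2, with 8.92 Mb, lay below 4xIOP replicates 1 and 2. Without control replicate 3 the control mean was 9.88 Mb, 59.7% of genes had a lower mean in 4xIOP and the median ratio was 0.951.

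The 2 lists with matching names are also the longest and the shortest list, with 20.1 Mb in control replicate 3 and 6.66 Mb in 4xIOP replicate 3. Between them the length was lower in 4xIOP at all 9 genes, with no test. The share of all genes that was lower between them was not computed, so the count is not a result about these genes. The difference was smallest at Ep300 and Kat2a (-223 bp each) and largest at Kat2b (-4041 bp), and at Brd2 it was -1753 bp. At Kat2a it had the other sign than the difference of the group means.

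At Brd2 the groups did not overlap. Control replicates 1 to 3 had 2242, 2105 and 3210 bp under peaks, and 4xIOP replicates 1 to 3 had 1677, 1912 and 1457 bp. Every list labelled control was above every list labelled 4xIOP (2519 ± 602 and 1682 ± 228 bp, SD, n = 3, exact permutation p = 0.1, the smallest that 3 against 3 can give). This was 1 of the 9 genes, and 10.4% of all genes with a peak had groups that did not overlap with 4xIOP lower, so the count is near the background. With equal numbers of top peaks by fold from every list, the difference at Brd2 turned to 189 bp higher in 4xIOP. The order also rests on the labels, since 4 of the 6 lists carry the name of the other group. No gene was higher in 4xIOP without overlap, and 0.0741% of all genes were.

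At the other genes the groups overlapped. The exact permutation p was 0.3 at Hdac3 and 0.6 to 1.0 at Ep300, Crebbp, Kat2a, Kat2b, Brd3 and Hdac1, and 0.5 at Hdac2. On the mean over the lists Kat2b had the longest cover, 1812 bp in 4xIOP replicate 3 to 5853 bp in control replicate 3, and Kat2a the shortest, 0 bp in control replicate 2 to 646 bp in control replicate 3, though Hdac3 was shorter in 4xIOP replicate 2 (262 bp) and Hdac1 in 4xIOP replicate 3 (306 bp). Ep300 varied least, from 1117 to 1340 bp. Without control replicate 3 the mean was higher in 4xIOP at 6 of the 9 genes, namely Crebbp (by 548 bp), Kat2a (247 bp), Kat2b (239 bp), Brd3 (406 bp), Hdac1 (118 bp) and Hdac2 (8.50 bp). The difference stayed negative at Ep300 (-12.7 bp), Brd2 (-492 bp) and Hdac3 (-276 bp).

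**Figure D4:**
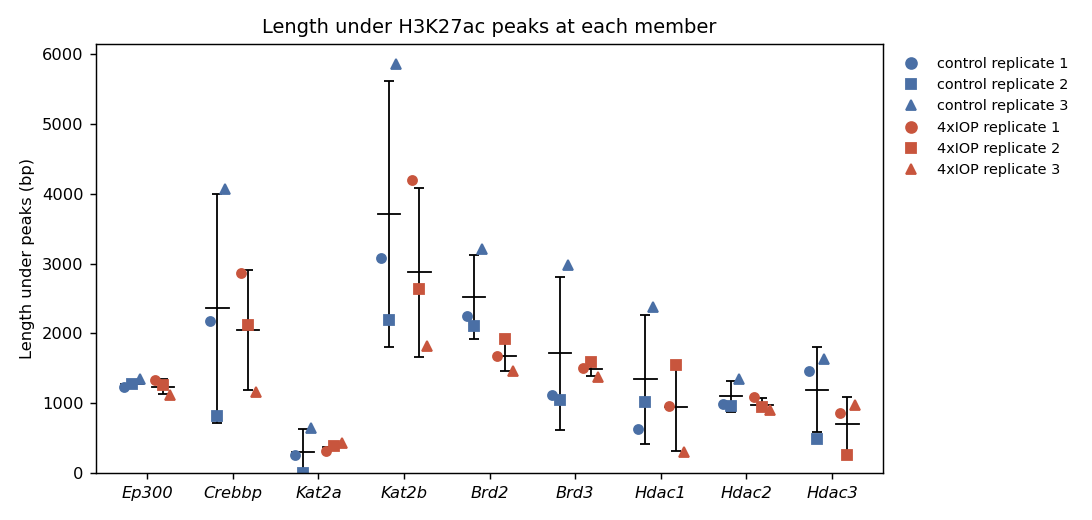
Length under H3K27ac peaks in the gene body and promoter windows of each gene in bp, with 1 point per list and the mean ± SD of each group (bars, n = 3). Control replicate 3 is the highest point at every gene, and only at Brd2 do the groups not overlap.

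Other genes of histone acetylation, 46 chosen by role, were looked at in the same way. A promoter peak was present in all 6 lists at 38 of them (82.6%, against 39.5% of all protein-coding genes), that is at 8 of 9 writers, 7 of 10 readers, 10 of 13 erasers and 13 of 14 complex partners. Brdt, the BET protein of the testis, had none in any list. Hat1, Hdac11 and Sin3a had one in 5 lists, Atad2 and Hdac6 in 4, and Mllt3 and Hdac8 in 3. Hat1 acetylates new histone H4, Sin3a is the scaffold of an HDAC1 and HDAC2 complex, and Hdac6 deacetylates tubulin.

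None of the 38 passed the limma test in either direction, and none had an unadjusted p under 0.05. 19 had a higher and 19 a lower mean score in 4xIOP, with a median difference of 0.00. Among the smallest unadjusted p were those of Creb1 (-0.70 ± 0.43, SE), which was lower, and of Tada3 (0.64 ± 0.45) and Ncoa3 (0.51 ± 0.38), which were higher in mean score, each with a limma adjusted p of 0.9996. Creb1 encodes the factor that recruits CBP, Tada3 a subunit of the GCN5 and PCAF complexes, and Ncoa3 a nuclear receptor coactivator.

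The median fold percentile was 69.1 for the other writers, 79.7 for the other readers, 50.1 for the other erasers and 40.2 for the complex partners. Hdac9 (3.98), Cited2 (5.65) and Sin3a (8.99) were among the lowest means and Brd8 (98.5) and Tada3 (97.3) among the highest, and these were named after their values were seen.

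**Figure D5:**
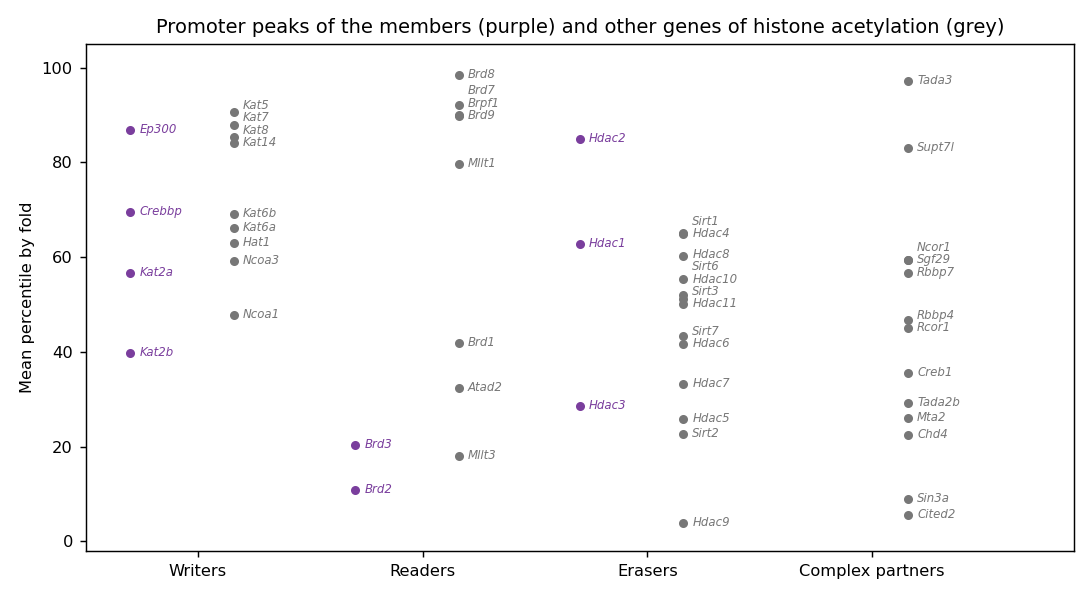
Mean percentile by fold among marked promoters, over the lists with a peak, for the 9 genes (purple) and the other genes of histone acetylation (grey, those with a peak in at least 1 list and reported here), by role, with names moved apart where they would overlap. The readers Brd2 (10.9) and Brd3 (20.5) lie near the bottom of their column, while Ep300 and Hdac2 lie near the top of theirs.

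For each of the 8 genes marked in all lists, the other protein-coding gene with the most similar 6 scores was looked up, as the smallest Euclidean distance over the 6 lists among 8661 genes. It was Tra2a for Ep300 (distance 0.226), Pcf11 for Crebbp (0.450), Ncoa2 for Kat2b (0.355), Arhgap24 for Brd2 (0.330), Zdhhc5 for Brd3 (0.231), Jpt2 for Hdac1 (0.304) and Slc35d1 for Hdac2 (0.279). For Hdac3 it was Rell2 at a distance of 0, since both take the value of the same peaks. Nothing about a shared function was read from these distances.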

How the data were processed

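The members and gene lists were chosen with earlier results of these data known. Each sample gave 1 narrowPeak list. The submitters' processing notes name STAR 2.7.8a, MACS2, HOMER, edgeR, bedtools 2.29.2 and the build mm10, without their roles. The deposited fold is the authors' ratio of fragments to local background at the summit, and the −log10 values of p and q are those of the authors' peak caller, as deposited. The study's methods give 1 approximate read depth for all samples, and the deposited lists hold no read totals. Fold and p together were solved for a whole number of fragments at each summit and the background beside it, and 100% of peaks gave back their −log10 p within 0.001. These numbers cover fragments at summits, and their counting error was not modelled. The smallest background in a list served as its genome mean.

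Only peaks of the 19 autosomes, X and Y entered. Promoters were 2.5 kb around the TSS of GENCODE vM21 basic transcripts, with an overlap of at least 1 bp. The highest promoter fold of a gene was ranked within its list and turned into a normal score, and scores were compared between 3 control and 3 4xIOP lists with limma 3.58.1 (R 4.3.3) and Benjamini-Hochberg adjustment over all genes or regions, at 0.05. The script was tested on simulated data. The length under peaks was tested with an exact permutation test (two-sided, scipy 1.17.1), which cannot go below 0.1. Both tests set the difference between the groups against the spread between these samples and treat the lists as independent. The control eyes were contralateral to treated eyes, and the labels do not pair them, so the main tests used no pairing. Named genes were the members, pathway genes lacking a promoter peak in a list, the 2 per direction with the smallest p, the gene most alike to each member, and neighbours sharing a peak, and some of these genes are not reported here. Alternatives were the fragments in place of fold, a −log10 q of at least 5, equal numbers of peaks, a window of 1 kb, summits inside the window, 50% of a region covered, the fragment-length class, the replicate block and leaving out each list.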

Additional observations from a re-analysis of the deposited data

How the results depend on the processing

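No gene or region was called in either direction under any of the alternatives run, including a −log10 q of at least 5, the 1 kb window, the fragment-length class and each left-out list. The unadjusted p was under 0.05 for 179 to 479 genes. With the number as a replicate block 0 genes were called. The deviations of same-numbered lists correlated at -0.0167, -0.0443 and -0.144, and those of differently numbered lists at -0.16 to 0.177. Whether same-numbered lists came from one animal cannot be told from these values. The smallest p of the sign-flip test over 3 pairs is 0.25.

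The members' score differences, none of them called, had the same sign in 86 of 111 values and the other sign in 25, 3 of these in the 2 lists with matching names. With fragments in place of fold the difference was -0.20 for Ep300, -0.22 for Kat2b, -0.13 for Brd2, 0.23 for Brd3 and -0.13 for Hdac2. With the fragment-length class as a term it was 0.23 for Crebbp and 0.16 for Brd3, and with the 1 kb window -0.10 for Brd2. Leaving out each list gave -0.17 to 0.33 for Ep300, -0.53 to 0.37 for Crebbp, -0.15 to 0.25 for Kat2b, -0.10 to 0.30 for Brd2, -0.27 to 0.23 for Brd3, -0.50 to 0.079 for Hdac1 and -0.12 to 0.38 for Hdac2. The cause was not tested.

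The members marked in all lists numbered 7 with equal numbers of top peaks, where Brd2 was lost, and 8 or 9 when a list was left out, 9 without control replicate 2. The share of all coding genes marked in every list was 35.7% with equal numbers, 40.5% without control replicate 2 and 39.5% to 41.4% over the left-out lists. The regions in all control lists and no 4xIOP list rose from 0 to 1 when 50% of the region had to be covered (the 5' Brd2 region). They ranged from 0 to 1 over left-out lists (the upstream Hdac1 region without 4xIOP replicate 2). The share of all regions under these settings was not computed, and the 1.05% given above belongs to the main setting.

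With equal numbers of top peaks the difference in length under peaks was 242 bp for Crebbp, 189 bp for Brd2 and 5.67 bp for Hdac1. Leaving out each list gave -90 to 17.5 bp for Ep300, -1082 to 548 bp for Crebbp, -76.3 to 247 bp for Kat2a, -1590 to 239 bp for Kat2b, -557 to 406 bp for Brd3, -762 to 118 bp for Hdac1 and -186 to 8.5 bp for Hdac2, and -1044 to -492 bp for Brd2 (-837 bp with all lists, -492 bp without control replicate 3) and -846 bp (without control replicate 2) to -274 bp (without 4xIOP replicate 2) for Hdac3 (-494 bp with all lists). Leaving out each list, an alternative chosen after seeing the data for the values over all genes, gave 59.7% to 96.6% of genes lower in 4xIOP and a median ratio of 0.689 to 0.951. Of the genes here, only Brd2 and Hdac3 kept the sign of the length difference over all left-out lists. At Brd2 the sign did turn with equal numbers of top peaks. The share of all genes that kept their sign over the left-out lists was not computed, so this is not read as particular to Brd2 and Hdac3.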
